A study of Homo sapiens with 11 samples.

Results

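The 40 genes described here encode proteins that carry out mitosis and chromosome segregation, and they were taken by gene symbol from a list chosen with earlier results of these data known. All 40 were found among the 57815 genes of the expression files, and all 40 were reported without a failed estimate in all 8 RNA libraries. The list was split by role into 7 groups, from CDK1 and its cyclins to the enzymes that release sister chromatids. DMS153 (3 libraries) and H209 (2 libraries, also written NCI-H209) are small cell lung carcinoma lines, and MRC5 (3 libraries) is a noncancerous lung fibroblast line. No line was treated, and all came from the same cell bank and were grown in the same serum-containing medium. The library titles spell the first line DM153, whereas the cell line field gives DMS153. Both carcinoma lines are established lines and the comparison line is a fibroblast, so line, cell type and disease cannot be told apart. The labels do not say whether libraries of a line came from separate cultures, so p-values measure only the spread between these libraries. The series also holds 1 Hi-C library per line.

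In mitosis the replicated chromosomes are condensed, attached to the spindle through kinetochores and pulled apart. CDK1 bound to cyclin A or B drives entry, the Polo-like and Aurora kinases organise spindle poles and attachments, and the spindle checkpoint holds the anaphase-promoting complex (APC/C) in check until every kinetochore is attached. The APC/C with its activator CDC20 then marks cyclin B and securin for destruction, which frees separase to cut the cohesin rings. Most of these genes are transcribed periodically, with a peak in G2 and M phase, under the MuvB complex with B-MYB and FOXM1. Their level in a bulk culture therefore depends on both the share of cycling cells and the RNA of each cell, which cannot be told apart here, and the share of cycling cells was not measured.

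Levels are given in FPKM, fragments normalised to transcript length and to the mapped fragments of the library, as the authors deposited them. Marker genes went with the labels: all 6 neuroendocrine markers were at or above 1 FPKM in every library of both carcinoma lines and summed to at most 0.363 FPKM in MRC5, where INSM1 was at 0, and all 8 fibroblast markers were at or above 1 FPKM in every MRC5 library. The immune markers summed to 22.1 to 33.3 FPKM in MRC5 through CD68 and to at most 1.10 FPKM in the carcinoma lines, where THY1 reached 29.3 FPKM in H209 and FOXJ1 24.2 FPKM in DMS153. The 3 endothelial markers analysed summed to at most 0.857 FPKM in every library. Loci of microRNAs took 39.4 to 43.7% of the summed FPKM in DMS153 and at most 0.0192% in H209 and MRC5. This is a share of summed FPKM and not of mapped fragments, which the sources used here do not give. It enters directly where libraries are rescaled to the same summed FPKM. The part of these loci in the results was not tested beyond the other scalings given with them.

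All 40 genes were higher in DMS153 than in MRC5, and all 40 were higher in H209 than in MRC5, with no overlap between libraries for any of them. The 40 genes together summed to 2016 to 2394 FPKM in DMS153, 1991 to 2039 FPKM in H209 and 148 to 164 FPKM in MRC5. The median gene had a mean of 43.1 FPKM in DMS153, 42.6 FPKM in H209 and 1.78 FPKM in MRC5. On the log2(FPKM + 1) scale the median difference over the 40 genes was 3.77 for DMS153 minus MRC5 and 3.71 for H209 minus MRC5, beside 0.44 and 0.46 over all 19066 genes tested. This scale understates the change of genes with low FPKM.

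A gene was called where the limma fit over all 8 libraries gave a Benjamini-Hochberg adjusted p below 0.05, taken over all genes tested, and a log2 difference of at least 1. By that rule 40 of 40 genes were called higher in DMS153 and none lower, where 34% of all tested genes were called higher and 16.4% lower. In H209 again 40 of 40 were called higher and none lower, where 33% of all tested genes were called higher and 14.9% lower. Libraries did not overlap, with the carcinoma line higher, for 56.6% of all tested genes in DMS153 and 59.3% in H209. Both comparisons share the 3 MRC5 libraries and are therefore not independent of each other. Of the 40 genes, 9 (CCNF, CDC25C, CDCA8, CENPA, SPC25, KIF20A, KIF4A, ESPL1 and MKI67) were under 1 FPKM in at least 2 MRC5 libraries and entered the test only through the carcinoma lines. A difference from MRC5 was fixed for them by the filter, so theirs is given as a value with no test. The other 31 reached 1 FPKM in at least 2 MRC5 libraries, and all 31 were called higher in each carcinoma line, where the background among genes with that level in MRC5 was 20.9% for DMS153 and 23.6% for H209.

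**Figure D1:**
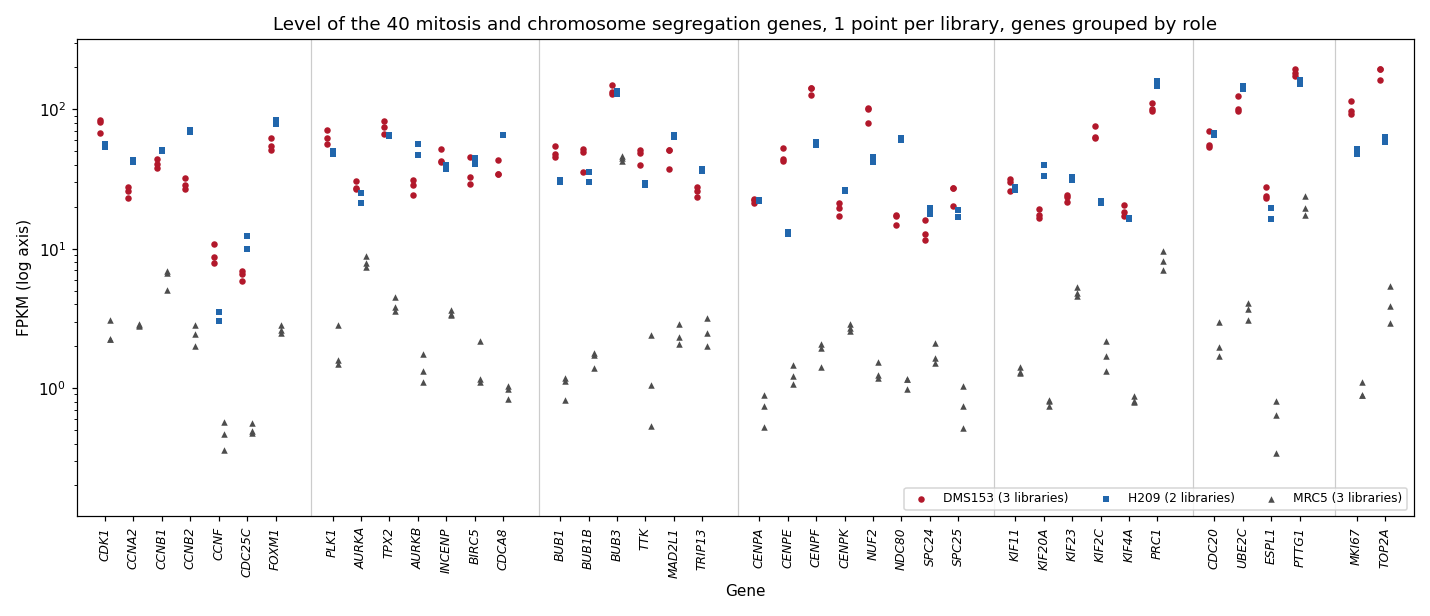
FPKM of each of the 40 genes (log axis) in each library, with genes grouped by role from entry kinases on the left to chromosome surface and topology on the right. Circles stand for the 3 DMS153, squares for the 2 H209 and triangles for the 3 MRC5 libraries, and every triangle lies below every circle and square of its gene.

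BUB3 and AURKA marked the low end of the range in both lines, and the high end was MKI67 and CENPF in DMS153 and CDCA8 in H209. MKI67 and CDCA8 are among the 9 genes whose difference was fixed by the filter. MKI67, the Ki-67 protein that coats mitotic chromosomes, stood at 96.6, 114 and 92.8 FPKM in DMS153, 52.1 and 47.6 FPKM in H209, and 1.10, 0.898 and 0.890 FPKM in MRC5. Its difference was 5.70 (SE 0.09) for DMS153 and 4.70 (SE 0.10) for H209. BUB3, a checkpoint protein that also works outside mitosis, was the most abundant of the 40 in MRC5, with 44.6, 42.6 and 46.2 FPKM. It reached 134, 149 and 128 FPKM in DMS153 and 135 and 128 FPKM in H209, a linear ratio of means of 3.08 and 2.96 over MRC5. AURKA, the Aurora kinase of the spindle poles, had 7.40, 8.89 and 7.94 FPKM in MRC5, 26.8, 30.8 and 27.0 FPKM in DMS153, and 21.4 and 25.0 FPKM in H209. Its log2 difference of 1.41 (SE 0.10, adjusted p = 1.17e-06) was the lowest of the 40 in H209, whereas BUB3 was lowest in DMS153 with 1.60 (SE 0.07, adjusted p = 2.65e-08).

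**Figure D2:**
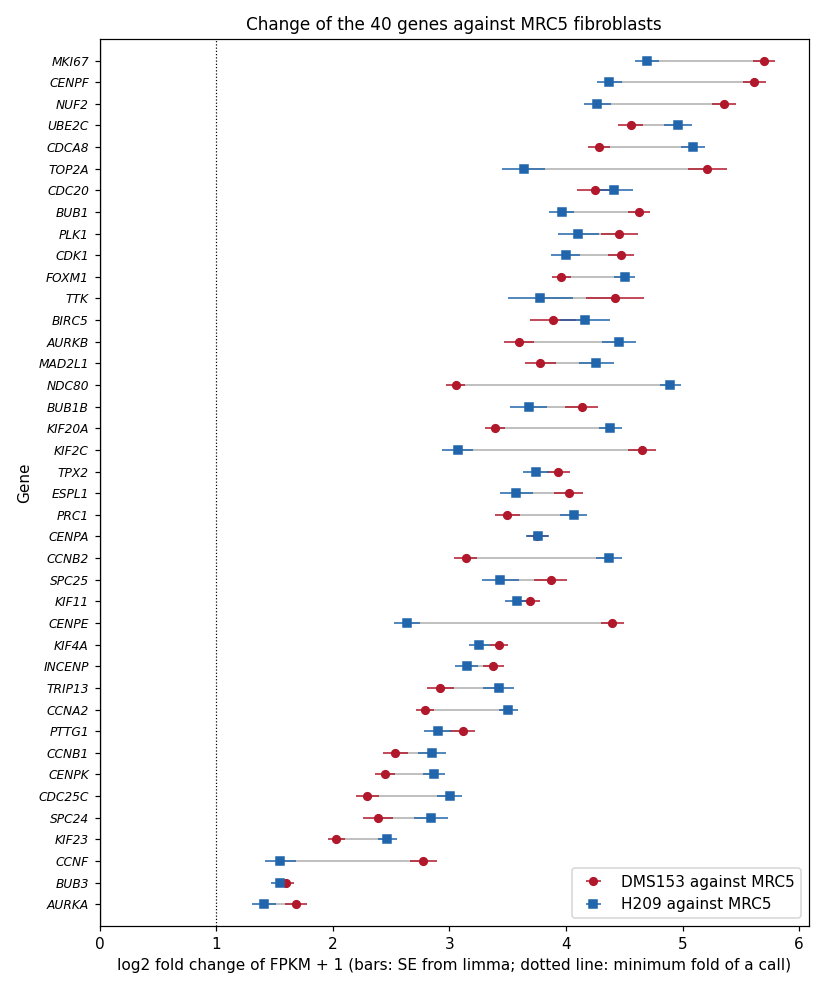
Difference in log2(FPKM + 1) of each of the 40 genes (vertical axis) from MRC5, with circles for DMS153, squares for H209 and bars for the standard error of the limma fit. All points lie to the right of the dotted line at 1, from 1.41 to 5.70, and the change was the larger in DMS153 for 21 genes and in H209 for 19.

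Promoters of G2 and M phase genes, the kind listed here, are where the elements searched below were already known. The shares are therefore a description and not an independent finding. A pair of short elements known from promoters of G2 and M phase genes were searched on both strands from 250 bases before to 50 bases after each RefSeq start site: the cell cycle genes homology region, here TTTGAA or TTTAAA, and the CCAAT box. The RefSeq table of GRCh38.p14 held 39 promoters for 33 of the 40 genes, and AURKA, BIRC5, TTK, TPX2, FOXM1, UBE2C and BUB3 were not matched. TTTGAA or TTTAAA was present in 30 of the 39 promoters (76.9%), beside 24.0% of all 35116 promoters in the table and 17.7% of those of tested genes. CCAAT was present in 31 (79.5%), beside 34.6% and 34.3%. Both were present in 25 (64.1%), beside 9.27% of all promoters. TTTGAA, with or without TTTAAA, was in 24 (61.5%), beside 15.2%. Within 100 bases upstream of the start site TTTGAA or TTTAAA was in 24 (61.5%), beside 8.60%. Of the 7 other cell division lists described below, spindle, motor and cytokinesis genes had TTTGAA or TTTAAA in 72% of 25 promoters. They had TTTGAA, with or without TTTAAA, in 68%, CCAAT in 64%, and CCAAT together with TTTGAA or TTTAAA in 56%. In the remaining lists TTTGAA or TTTAAA was in 14.3% (G1 cyclins and kinases) to 42.9% (MuvB, B-MYB and pocket proteins). A match is a description of letters and not a measured binding site.

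Stretches from 6 promoters show how the elements lie before the start site, from RefSeq GRCh38.p14, all on the plus strand and 5′ to 3′. Capitals mark TTTGAA or TTTAAA and also the CCAAT box, which reads ATTGG where it lies on the other strand. The CCNB2 stretch is chr15:59105016-59105145, CCNB1 chr5:69167050-69167149, PLK1 chr16:23678789-23678888, CDC20 chr1:43358871-43358980, KIF20A chr5:138179012-138179111 and TRIP13 chr5:892784-892883.
CCNB2: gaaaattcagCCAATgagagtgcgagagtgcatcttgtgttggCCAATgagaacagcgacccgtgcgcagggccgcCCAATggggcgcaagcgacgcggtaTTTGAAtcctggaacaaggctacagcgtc
CCNB1: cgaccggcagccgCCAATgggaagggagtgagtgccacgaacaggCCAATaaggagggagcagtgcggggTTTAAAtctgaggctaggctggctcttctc
PLK1: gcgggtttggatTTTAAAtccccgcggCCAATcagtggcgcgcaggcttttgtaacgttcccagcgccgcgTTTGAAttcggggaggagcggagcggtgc
CDC20: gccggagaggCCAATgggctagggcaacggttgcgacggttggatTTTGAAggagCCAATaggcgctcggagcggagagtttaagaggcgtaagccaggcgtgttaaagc
KIF20A: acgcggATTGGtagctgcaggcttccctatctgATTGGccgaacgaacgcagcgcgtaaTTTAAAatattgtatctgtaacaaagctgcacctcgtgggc
TRIP13: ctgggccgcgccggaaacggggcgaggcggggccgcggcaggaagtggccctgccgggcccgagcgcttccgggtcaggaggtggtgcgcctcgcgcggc
The CCNB2 stretch holds CCAAT at 120, 87 and 54 bases and TTTGAA at 29 bases upstream of the start site. CCNB1 has CCAAT at 87 and 55 bases and TTTAAA at 30 bases, and PLK1 has TTTGAA at 29 bases. TRIP13 was the 1 gene with no match to either element in its 300 bases, and its difference from MRC5 was 2.92 in DMS153 and 3.42 in H209. The part of the elements in these differences was not tested. Among genes with a promoter in the table, the median difference in DMS153 was 3.78 for the 27 with TTTGAA or TTTAAA and 2.86 for the 6 without, and in H209 it was 3.68 and 3.47, with overlapping ranges.

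The RNA of CDK1 and its cyclins was higher in both carcinoma lines, with a different balance of cyclin RNA in each. CDK1, the kinase that drives entry into mitosis (ENSG00000170312.11, hg19 chr10:62538089-62554610), had 83.2, 81.2 and 67.5 FPKM in DMS153, 56.7 and 53.5 FPKM in H209 and 2.26, 2.27 and 3.06 FPKM in MRC5. The ratio of means over MRC5 was 30.6 in DMS153 and 21.8 in H209, with log2 differences of 4.47 (SE 0.11, adjusted p = 5.45e-10) and 4.00 (SE 0.12, adjusted p = 3.32e-09). Every carcinoma library lay above 50 FPKM and every MRC5 library near 3 FPKM or below.

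Cyclins A2, B1 and B2 had higher levels in H209 and cyclin F in DMS153. Between the carcinoma lines CCNB2 and CCNF were called by the rule above, and CCNA2 (-0.72) and CCNB1 (-0.31, DMS153 minus H209) were not. Calls between these lines depended on the scaling, as given below. CCNB2 had 28.8, 31.9 and 26.7 FPKM in DMS153, 68.2 and 70.8 FPKM in H209, and 2.01, 2.85 and 2.42 FPKM in MRC5. CCNB1, the other B-type cyclin, had 40.3, 43.9 and 37.6 FPKM in DMS153, 51.0 and 50.2 FPKM in H209, and 5.03, 6.64 and 6.97 FPKM in MRC5. The ratio of CCNB2 to CCNB1 was 0.710 to 0.727 over the DMS153 libraries, 1.34 to 1.41 in H209 and 0.348 to 0.429 in MRC5, so the ranges of the 3 lines did not overlap. CCNA2, cyclin A2, ranged from 23.2 to 27.6 FPKM in DMS153 and from 41.8 to 43.2 FPKM in H209, against 2.78 to 2.86 FPKM in MRC5. CCNF, the F-box protein cyclin F, was the lowest of the 40 in H209, with 3.53 and 3.05 FPKM, beside 8.67, 10.8 and 7.83 FPKM in DMS153 and 0.359, 0.568 and 0.466 FPKM in MRC5. Its difference in H209 was 1.55 (SE 0.13), and 0.75 under quantile normalization, below the minimum fold.

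CDC25C, the phosphatase that activates CDK1, was at 5.84 to 6.88 FPKM in DMS153, 9.89 and 12.4 FPKM in H209, and 0.475 to 0.560 FPKM in MRC5. FOXM1, a transcription factor for G2 and M phase genes and the only one of the 40, was at 51.0, 61.9 and 54.2 FPKM in DMS153, 78.9 and 84.0 FPKM in H209, and 2.62, 2.82 and 2.47 FPKM in MRC5. The FOXM1 differences were 3.96 (SE 0.08, adjusted p = 1.95e-10) in DMS153 and 4.50 (SE 0.09, adjusted p = 2.98e-10) in H209.

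The mitotic kinases and their partners were higher in both carcinoma lines as well. PLK1, which acts at centrosomes, kinetochores and the midzone, had 56.7, 70.8 and 62.0 FPKM in DMS153 and 48.0 and 50.1 FPKM in H209. In MRC5 it had 1.49, 2.81 and 1.59 FPKM, so replicate 2 stood above the other MRC5 libraries. TPX2, the spindle protein that activates AURKA, had 66.8 to 83.1 FPKM in DMS153, 64.4 and 65.9 FPKM in H209 and 3.54 to 4.54 FPKM in MRC5. The ratio of means over MRC5 was 3.49 for AURKA and 18.9 for TPX2 in DMS153, and 2.87 and 16.5 in H209, and the difference between these genes was not tested. A copy of AURKA listed as AURKAPS1 reached 3.39 FPKM in H209 and 0.509 FPKM in MRC5, and how reads were divided between the copies is not given in the sources used here.

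The chromosomal passenger complex joins the kinase AURKB to INCENP, survivin (BIRC5) and borealin (CDCA8), which place it on the inner centromere. CDCA8 had the largest difference of the 40 in H209, 5.09 (SE 0.11), from 0.837, 1.03 and 0.990 FPKM in MRC5 to 65.4 and 65.3 FPKM. In DMS153 CDCA8 had 34.4, 42.9 and 34.4 FPKM. AURKB had 24.2, 31.1 and 28.5 FPKM in DMS153, 46.9 and 56.2 FPKM in H209, and 1.76, 1.33 and 1.11 FPKM in MRC5. INCENP, the scaffold, was more even, with 42.0, 52.1 and 42.6 FPKM in DMS153, 39.7 and 37.4 FPKM in H209, and 3.33 to 3.64 FPKM in MRC5. The INCENP to AURKB ratio was 1.49 to 1.73 in DMS153, 0.666 to 0.846 in H209 and 2.07 to 3.00 in MRC5, again without overlap. BIRC5 had 29.2 to 45.3 FPKM in DMS153, 40.5 and 44.9 FPKM in H209 and 1.10 to 2.19 FPKM in MRC5. A separately listed gene, AC087645.1, overlaps BIRC5 over 10279 of its 11451 bases.

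**Figure D3:**
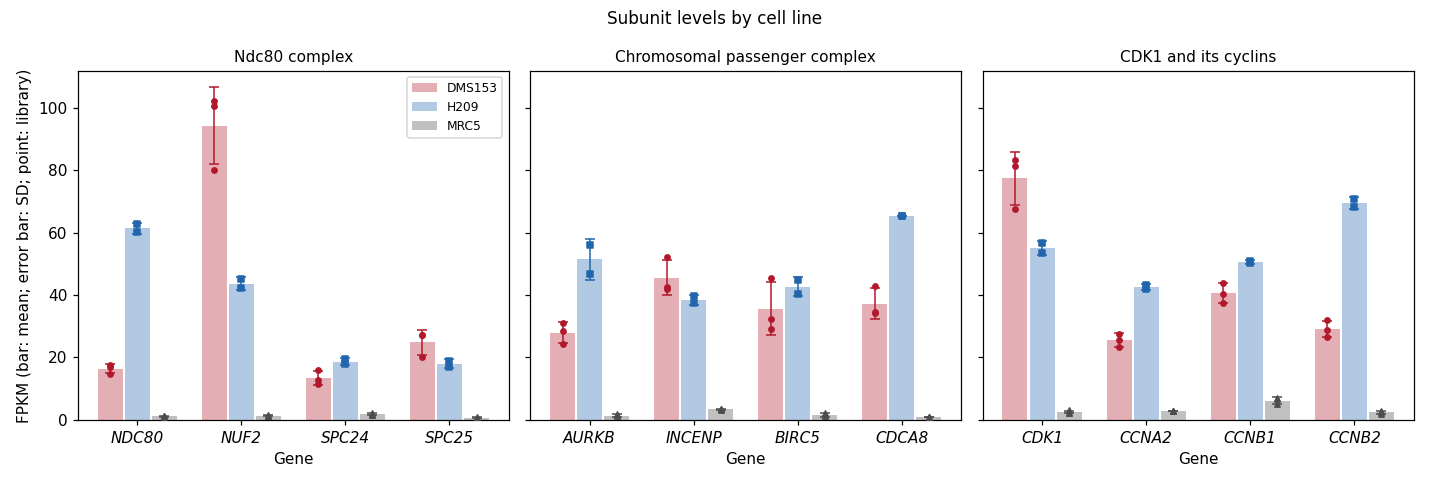
FPKM of the subunits of the Ndc80 complex, the chromosomal passenger complex, and CDK1 with its cyclins. Bars are means, error bars the standard deviation and points the libraries of DMS153 (red), H209 (blue) and MRC5 (grey), and NUF2 is above NDC80 in DMS153 and below it in H209.

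The checkpoint genes were higher in both lines, with BUB3 set apart by its level in MRC5. BUB1, a kinetochore kinase, had 47.9, 54.5 and 45.8 FPKM in DMS153, 30.0 and 31.3 FPKM in H209, and 0.817, 1.12 and 1.18 FPKM in MRC5. BUB1B (BUBR1), which together with MAD2 inhibits CDC20, had 35.7 to 52.3 FPKM in DMS153, 30.1 and 35.4 FPKM in H209 and 1.40 to 1.77 FPKM in MRC5. The differences of BUB1 were 4.63 (SE 0.09, adjusted p = 1.61e-10) and 3.96 (SE 0.10, adjusted p = 1.32e-09) in DMS153 and H209. MAD2L1, which encodes MAD2, had 37.2 to 50.9 FPKM in DMS153, 63.2 and 65.5 FPKM in H209 and 2.06 to 2.89 FPKM in MRC5. TRIP13, the ATPase that turns MAD2 over, had 23.5 to 27.7, 36.3 to 37.2 and 1.99 to 3.16 FPKM in the same order of lines.

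TTK (MPS1), the kinase that starts checkpoint signalling, was the least even of the 40 within a line. It had 2.42, 0.532 and 1.05 FPKM in MRC5, a span of 4.54 times, beside 50.8, 48.9 and 39.8 FPKM in DMS153 and 28.8 and 29.8 FPKM in H209. The median span from lowest to highest library over the 40 genes was 1.36 times in MRC5, 1.22 times in DMS153 and 1.05 times in H209. The confidence intervals deposited with the values had a half-width of 17.3 to 20.1% of the FPKM for the median gene in MRC5 libraries, and on average 4.34% in DMS153 and 4.66% in H209. In DMS153, replicate 2 was the highest library for 29 of the 40 genes and replicate 3 the lowest for 29.

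At centromeres and kinetochores all 8 genes were higher in both lines, and CENPE and NDC80, with the largest differences between the carcinoma lines among the 40, are of this group. CENPA, the histone H3 variant that marks the centromere, was at 21.3, 22.7 and 22.4 FPKM in DMS153, 22.5 and 21.9 FPKM in H209, and 0.527, 0.745 and 0.896 FPKM in MRC5. Its difference from MRC5 was 3.75 in DMS153 and 3.76 in H209, and the carcinoma libraries overlapped. CENPK, of the inner kinetochore network, had 17.1 to 21.3 FPKM in DMS153, 25.9 and 26.3 FPKM in H209 and 2.56 to 2.89 FPKM in MRC5. CENPF, a large protein of the outer kinetochore, had 141, 142 and 126 FPKM in DMS153, 55.8 and 58.0 FPKM in H209, and 2.07, 1.93 and 1.42 FPKM in MRC5. CENPE, the kinesin that moves chromosomes to the spindle equator, had 42.6, 44.0 and 53.1 FPKM in DMS153, 12.7 and 13.2 FPKM in H209, and 1.08, 1.46 and 1.23 FPKM in MRC5.

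The Ndc80 complex, which holds the microtubule, is built of NDC80 with NUF2 and SPC24 with SPC25. The RNA levels of its subunits stood in different proportions in each line, and protein was not measured. NDC80 (hg19 chr18:2571510-2616634) had 17.0, 17.6 and 14.7 FPKM in DMS153, 60.2 and 62.7 FPKM in H209, and 1.17, 1.16 and 0.979 FPKM in MRC5. NUF2 (hg19 chr1:163236366-163325554) had 102, 101 and 80.0 FPKM in DMS153, 42.1 and 45.1 FPKM in H209, and 1.53, 1.18 and 1.24 FPKM in MRC5. The ratio of NUF2 to NDC80 was therefore 5.43 to 5.99 in DMS153, 0.700 to 0.719 in H209 and 1.02 to 1.31 in MRC5. No library of one line fell within the range of another. SPC24 had 12.8, 16.1 and 11.5 FPKM in DMS153, 17.8 and 19.5 FPKM in H209 and a mean of 1.75 FPKM (SD 0.31, n = 3) in MRC5, and SPC25 had 27.2, 27.2 and 20.1 FPKM in DMS153, 19.0 and 17.0 FPKM in H209 and 0.514 to 1.03 FPKM in MRC5. The SPC25 to SPC24 ratio was 1.69 to 2.12 in DMS153, 0.872 to 1.07 in H209 and 0.245 to 0.626 in MRC5. NUF2 is overlapped by other tested genes, of which RGS5, the highest, reached 6.48 FPKM, and no tested gene overlaps NDC80.

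Among motors and midzone proteins, PRC1 was the most abundant and KIF2C the most unequal between the carcinoma lines. PRC1, which bundles the antiparallel microtubules of the midzone, had 101, 111 and 96.9 FPKM in DMS153, 146 and 160 FPKM in H209, and 8.10, 9.68 and 6.98 FPKM in MRC5. An antisense gene, PRC1-AS1, overlaps 22280 of its 29590 bases and reached 45.2 FPKM, and whether counting used strand is not given in the sources used here. KIF2C (MCAK), a kinesin that takes microtubules apart at kinetochores, had 63.4, 75.6 and 62.6 FPKM in DMS153, 21.3 and 22.2 FPKM in H209, and 1.32, 2.16 and 1.69 FPKM in MRC5. KIF20A, a kinesin of cytokinesis, had 16.7, 19.2 and 17.5 FPKM in DMS153, 33.3 and 39.6 FPKM in H209, and 0.818, 0.743 and 0.810 FPKM in MRC5.

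KIF11 (Eg5), which pushes the spindle poles apart, was near equal in the carcinoma lines, at 25.7 to 31.6 FPKM in DMS153 and 26.2 and 27.5 FPKM in H209, against 1.28 to 1.41 FPKM in MRC5. KIF4A, a chromosome-bound and midzone kinesin, was at 17.0 to 20.6 FPKM, 16.5 FPKM in both H209 libraries and 0.801 to 0.873 FPKM in MRC5. KIF23, of the centralspindlin complex, had one of the smaller differences, 2.03 in DMS153 and 2.47 in H209, from 4.60 to 5.28 FPKM in MRC5 to 21.6 to 24.2 FPKM and 30.9 to 32.4 FPKM.

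The genes of APC/C control and anaphase included some of the highest levels. PTTG1, securin, had 181, 194 and 173 FPKM in DMS153, 151 and 163 FPKM in H209, and 19.6, 23.8 and 17.5 FPKM in MRC5, where only BUB3 had a higher mean among the 40. ESPL1, the separase it holds back, had 23.8, 27.6 and 23.1 FPKM in DMS153, 16.4 and 19.5 FPKM in H209, and 0.341, 0.806 and 0.642 FPKM in MRC5. CDC20, the APC/C activator and checkpoint target, had 53.3, 70.2 and 55.5 FPKM in DMS153, 67.1 and 65.8 FPKM in H209, and 1.97, 2.97 and 1.71 FPKM in MRC5. UBE2C, the ubiquitin-conjugating enzyme of the APC/C, had 97.4, 124 and 101 FPKM in DMS153, 139 and 146 FPKM in H209, and 4.06, 3.69 and 3.10 FPKM in MRC5. The UBE2C difference was 4.55 (SE 0.11, adjusted p = 4.55e-10) in DMS153 and 4.96 (SE 0.12, adjusted p = 8.48e-10) in H209. TOP2A, the topoisomerase that untangles sister chromatids, was the most abundant of the 40 in DMS153, with 195, 196 and 161 FPKM, beside 58.1 and 63.5 FPKM in H209 and 2.91, 5.43 and 3.86 FPKM in MRC5.

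Between the 2 carcinoma lines 9 of the 40 genes were called. Higher in DMS153 than in H209 were 7 genes, where 13.8% of all tested genes were called, and lower were 2, where 13.4% were called. The remaining 31 were not called, which does not show that they were equal: without the minimum fold, 13 genes were higher (34.6% of all tested genes) and 16 lower (39%). Libraries did not overlap for 19 genes in the direction of DMS153 (38.7% of all tested genes) and for 16 in that of H209 (43.6%), and 5 genes overlapped (BIRC5, CENPA, CDC20, KIF11 and BUB3).

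CENPE differed most in the direction of DMS153, by 1.76 (SE 0.11, adjusted p = 1.02e-06) and a ratio of means of 3.59. KIF2C differed by 1.58 (SE 0.13, adjusted p = 6.24e-06) and TOP2A by 1.58 (SE 0.18, adjusted p = 5.16e-05). CENPF (1.24), CCNF (1.23), NUF2 (1.09) and MKI67 (1.00) followed. MKI67 lay at the threshold and was no longer called without DMS153 replicate 2 (0.91) or without H209 replicate 2 (0.94). In the direction of H209, NDC80 differed by -1.84 (SE 0.09, adjusted p = 2.39e-07), with an H209 mean 3.73 times that of DMS153, and CCNB2 by -1.23 (SE 0.11, adjusted p = 1.10e-05), 2.39 times. KIF20A, at -0.99, lay just short of the minimum fold. It was called lower under TPM scaling (-1.64), with pseudocounts of 0.1 (-1.03) and 0.5 (-1.01), under quantile normalization (-1.04), and without DMS153 replicate 2 (-1.04) or H209 replicate 1 (-1.11).

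These calls depended on the scaling between libraries. When FPKM were rescaled to the same sum per library (TPM), which divides DMS153 by a sum that includes its microRNA loci, 1 of the 40 genes was called higher in DMS153 and 15 lower. Only CENPE (1.15 under TPM), NDC80 (-2.50) and CCNB2 (-1.88) were called under every setting tried. The TPM values of the others called higher were 0.95 for KIF2C, 0.93 for TOP2A, 0.72 for CCNF, 0.60 for CENPF, 0.45 for NUF2 and 0.36 for MKI67, in the same direction but under the minimum fold. A ratio of genes within a library does not depend on this scaling, so the NUF2 to NDC80 and CCNB2 to CCNB1 ratios above stand apart from it.

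Genes near each of the 40 were compared between the carcinoma lines as well, a description chosen after the values had been seen. For NDC80 the other 40 tested genes within 5 Mb had a median difference of -1.36, beside its own -1.84. AURKB differed by -0.86 beside a median of -0.93 over its neighbours, KIF20A by -0.99 beside -0.93, and CDC25C by -0.71 beside -0.95, where KIF20A and CDC25C share neighbours on chromosome 5. CCNB2 differed by -1.23 beside -0.76. For these genes, given as examples, the neighbourhood lay on the same side as the gene, toward H209. Other genes higher in H209 had neighbours on the opposite side or near 0. CCNA2 differed by -0.72 beside 0.03, MAD2L1 by -0.48 beside 0.05 and CENPK by -0.42 beside 0.37.

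Some genes higher in DMS153 lay on the same side as their neighbours' median but farther from it. CENPE differed by 1.76 beside a neighbours' median of 0.47, TOP2A by 1.58 beside 0.27, KIF2C by 1.58 beside 0.39, CCNF by 1.23 beside 0.07 and MKI67 by 1.00 beside 0.02. The gene and its neighbours' median lay on the same side for 28 of the 40 genes and on opposite sides for 12, of which BUB1B (0.46 beside -0.66) and CCNB1 (-0.31 beside 0.53) are examples. The same count was not made over all tested genes, so this count has no background here. Over the 40 genes Pearson's r between a gene's difference and its neighbours' median was 0.70, beside 0.30 over 19000 tested genes and 0.64 over the 111 genes of the other cell division lists with neighbours, where points share libraries and overlapping windows. Copy number was not measured, and its part in these values was not tested.

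**Figure D4:**
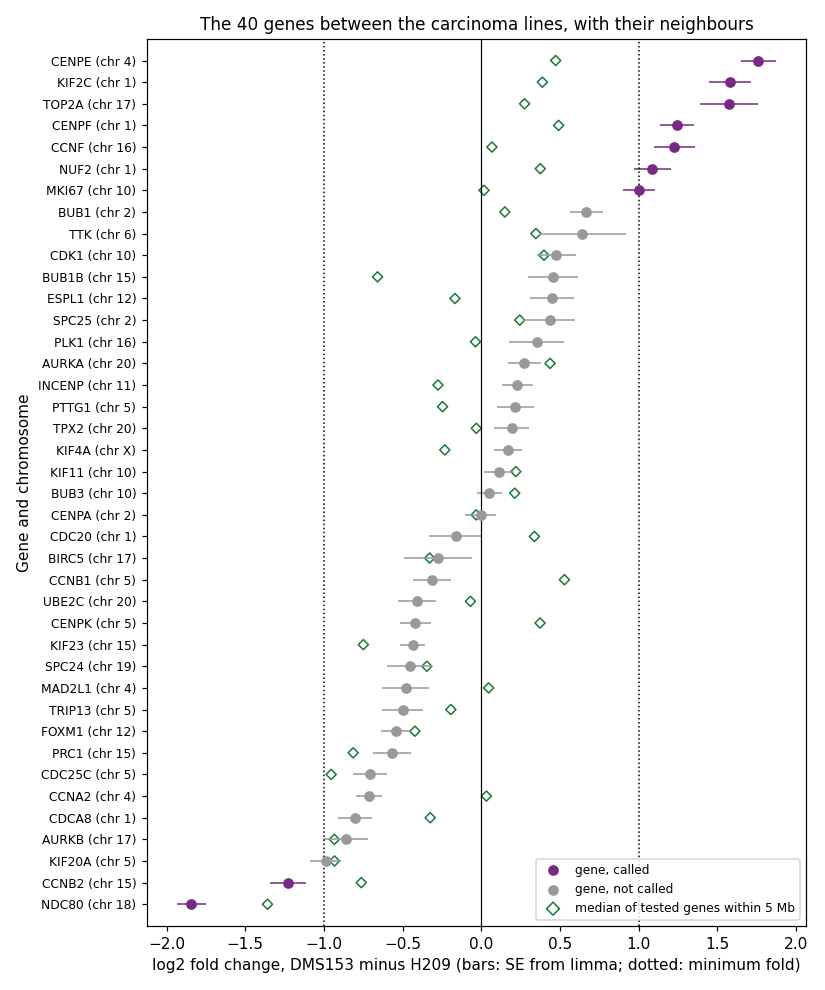
Difference in log2(FPKM + 1) between DMS153 and H209 (horizontal axis) for each of the 40 genes with its chromosome (vertical axis). Filled circles are the genes with the standard error of the limma fit, purple where called and grey where not, and open diamonds are the median of the other tested genes within 5 Mb; NDC80 at -1.84 has its neighbours at -1.36, and CENPE at 1.76 has its neighbours at 0.47.

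Genes of the same processes outside the 40 were read from the same fit, in which 34% of all tested genes were called higher in DMS153 and 33% in H209. Of 30 tested genes in a list of other centromere and kinetochore genes, 24 were called higher in DMS153 and 25 in H209, and none lower. ZWINT, a partner of the kinetochore scaffold KNL1, had 104 to 140 FPKM in DMS153, 106 and 108 FPKM in H209 and 3.08 to 4.41 FPKM in MRC5. KNTC1, of the complex that recruits dynein to kinetochores, differed from MRC5 by 4.75 in DMS153 and 3.75 in H209, and HJURP, the chaperone that deposits CENPA, by 4.41 and 4.12. All 22 other spindle, motor and cytokinesis genes were called higher in both lines, with ASPM (5.04) and KIFC1 (4.86) highest in DMS153 and KIFC1 (5.38) and NUSAP1 (5.21) in H209. Of these 22 genes, 6 (CIT, KIF14, KIF15, KIF18B, KIFC1 and ASPM) were below 1 FPKM in at least 2 MRC5 libraries and entered the test only through the carcinoma lines, as did CENPM, SKA1, SKA3 and OIP5 of the centromere list. Among the genes that reached that level in MRC5, 16 of 16 of the spindle list were called higher in each line, and 20 of 26 in DMS153 and 21 of 26 in H209 of the centromere list, beside the 20.9% and 23.6% given above for all genes at that level.

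Of 18 other kinases and phosphatases of mitotic entry and exit, 15 were called higher in each line and none lower. NEK2, a centrosome kinase, differed by 5.17 in DMS153 and 3.78 in H209, CDKN3, a phosphatase of CDKs, by 4.44 in DMS153, and GTSE1 by 4.38 in H209. NEK2, GTSE1 and CDC25A entered the test only through the carcinoma lines, and of the other 15 genes 12 were called higher in each line. Of all genes that reached 1 FPKM in at least 2 MRC5 libraries, 20.9% were called higher in DMS153 and 23.6% in H209. Of 8 other checkpoint and cohesion genes, 6 were called higher in DMS153 and 5 in H209, led by CDCA5 (sororin, which protects cohesin) with 3.97 and 4.27. SGO1, shugoshin, differed by 2.84 in DMS153 and HASPIN, a histone H3 kinase, by 2.31 in H209. HASPIN was also called in DMS153 at 1.18, and that call was lost under quantile normalization (0.31). SGO1 and HASPIN entered only through the carcinoma lines. Of the other 6 genes 4 were called higher in DMS153 and 3 in H209, beside the same 20.9% and 23.6%.

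Of 17 APC/C subunits and regulators, 4 were called higher and 1 lower in DMS153, and 5 higher and 1 lower in H209. The shares called higher were 23.5% and 29.4%, beside 34% and 33% of all tested genes. All 17 reached 1 FPKM in at least 2 MRC5 libraries, and among genes at that level 20.9% and 23.6% were called higher. FBXO5 (EMI1), an APC/C inhibitor, differed by 3.79 and 3.21, and UBE2S, which extends the ubiquitin chains, had 254 to 308 FPKM in DMS153, 244 and 251 FPKM in H209 and 51.0 to 64.6 FPKM in MRC5. Among the 14 core subunits, a subset taken after the values had been seen, only ANAPC1 was called higher in DMS153 (1.06) and only ANAPC1 (1.29) and ANAPC2 (1.03) in H209. ANAPC13 was lower in both, by -1.72 and -1.34, with 76.0 to 77.7 FPKM in MRC5, 21.1 to 23.9 FPKM in DMS153 and 29.2 to 30.5 FPKM in H209. The core subunits' medians were 0.06 and 0.20, beside 0.44 and 0.46 over all tested genes.

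**Figure D5:**
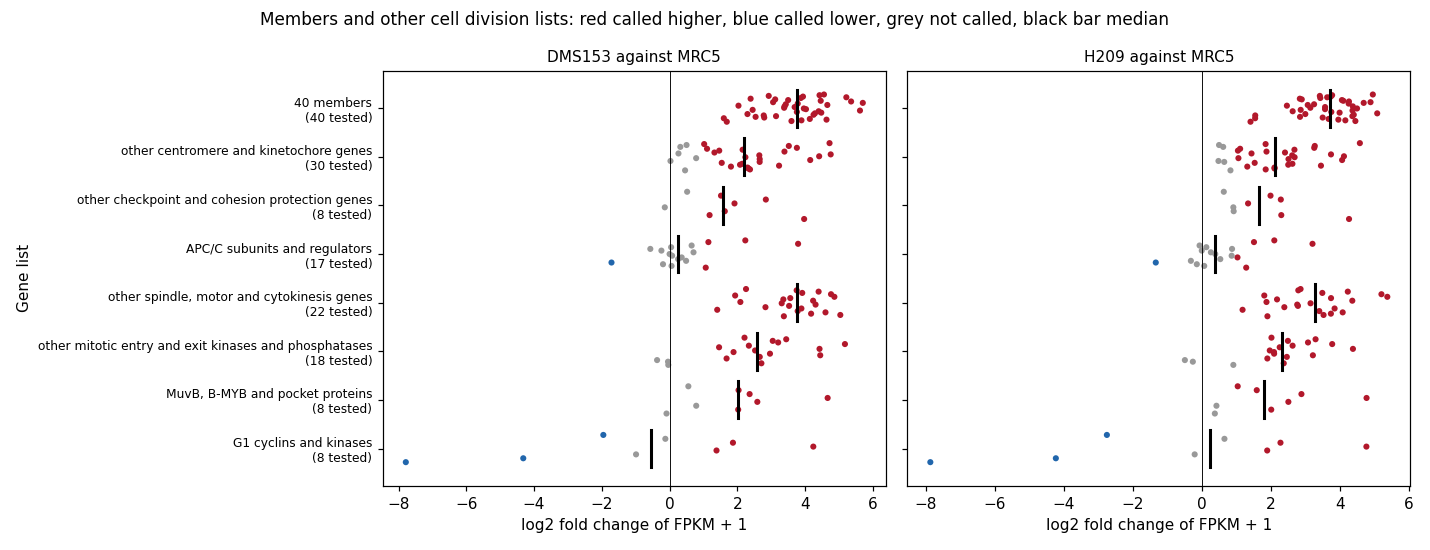
Difference in log2(FPKM + 1) from MRC5 (horizontal axes) of the 40 genes and of 7 other cell division lists (vertical axis), for DMS153 on the left and H209 on the right. Each point is a gene, red where called higher, blue where called lower and grey where not called, and the black bar is the median, which is 0.25 in DMS153 for APC/C subunits and regulators and 3.77 for the 40 genes.

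MuvB, B-MYB and the pocket proteins, which regulate this set of promoters, were higher in part. MYBL2 (B-MYB) had 47.7, 62.5 and 47.5 FPKM in DMS153, 54.5 and 58.8 FPKM in H209, and 1.01, 1.24 and 1.05 FPKM in MRC5, a difference of 4.66 and 4.78. Of the 8 genes, 5 were called higher in DMS153 (MYBL2, LIN9, RBBP4, RBL1 and LIN52) and 6 in H209 (the same and RBL2, at 1.04), where LIN9 entered only through the carcinoma lines. Of all tested genes 34% and 33% were called higher. Among the 7 genes that reached 1 FPKM in at least 2 MRC5 libraries, 4 were called higher in DMS153 and 5 in H209. The background at that level was 20.9% and 23.6%. The RBL2 call was lost under median ratio scaling (0.69) and under quantile normalization (0.75), and quantile normalization also took RBL1 in H209 to 0.84. LIN54 differed by 0.78 and 0.42 and LIN37 by -0.09 and 0.38.

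G1 cyclins and kinases split in both directions. CCND1, cyclin D1, had 356, 385 and 402 FPKM in MRC5 and at most 0.960 FPKM in any carcinoma library, a difference of -7.78 in DMS153 and -7.88 in H209. CCND1 and CCND2 were under 1 FPKM in every carcinoma library and entered the test only through MRC5, so a lower level was fixed for them by the filter. CCND2 and CDK6 were also called lower in both lines, by -4.32 and -1.96 in DMS153 and by -4.24 and -2.75 in H209. CCNE2 (4.24 and 4.77), CDK2 (1.87 and 2.28) and CCNE1 (1.38 and 1.90) were called higher in both, of which CCNE1 in DMS153 was at 0.83 and not called under quantile normalization. CCND3 differed by -0.99 and -0.21, and CDK4 by -0.13 and 0.66. CCND3 in DMS153 was called lower with pseudocounts of 0.1 (-1.03) and 0.5 (-1.01), under median ratio scaling (-1.20), quantile normalization (-1.19) and TPM scaling (-1.42), and without DMS153 replicate 2 (-1.02) or MRC5 replicate 1 (-1.03). Of the 8 genes, 3 (37.5%) were called higher and 3 lower in each line, where 34% and 33% of all tested genes were called higher and 16.4% and 14.9% lower. All 8 reached 1 FPKM in at least 2 MRC5 libraries, and among genes at that level 20.9% and 23.6% were called higher.

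Between DMS153 and H209, 9 of the 111 tested genes of these lists were called higher (8.11%) and 5 lower (4.50%), where 13.8% and 13.4% of all tested genes were called. CENPS (2.01) was higher in DMS153, and MIS12 (-1.18) and MIS18A (-1.09), which takes part in loading CENPA, were lower. KIF14 (1.54), ASPM (1.50), NEK2 (1.39) and CDKN3 (1.22) were also higher in DMS153. CDC23, an APC/C core subunit, was lower by -1.45, and HASPIN (-1.13) and MAD2L1BP (-1.06) were lower too. Under TPM scaling KIF14 (0.96), ASPM (0.89), NEK2 (0.76) and CDKN3 (0.59) were no longer called, and under median ratio scaling HASPIN (-0.99), MIS18A (-0.94) and MAD2L1BP (-0.91) were not. MAD2L1BP was also not called with the replicate number as a block (-0.997). No gene of the MuvB or G1 lists was called, but several were under other settings. Under TPM scaling CCND3 (-1.43), CDK4 (-1.43), CCNE2 (-1.18), CCNE1 (-1.14) and CDK2 (-1.06) of the G1 list were called lower. So were RBBP4 (-1.18), RBL2 (-1.13) and LIN37 (-1.08) of the MuvB list. CDK4 was also called lower under quantile normalization, and CDK6 was called higher with a pseudocount of 0.1 (1.17).

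The Hi-C domain lists gave the position of each of the 40 genes relative to domain boundaries, in hg19 and with 1 library per line, so no test was made. The locus lay within 40 kb of a boundary for 28 of 40 genes (70%) in DMS153, 28 (70%) in H209 and 25 (62.5%) in MRC5, beside 51.4%, 45.5% and 44.8% of all tested genes. The files list 5023 domains in DMS153, 3987 in H209 and 3701 in MRC5. Of the 40 genes, 21 were near a boundary in all 3 lines and 8 in none, the latter being CCNA2, CCNB1, CCNF, AURKB, BUB3, TTK, KIF2C and CDC20. CENPE, CENPF, NUF2 and MAD2L1 had a boundary within the locus in every line. TOP2A was 5.80 kb from a boundary in H209 but 205 kb in DMS153 and 366 kb in MRC5, and BUB1 was 15.3 kb from one in H209, 35.3 kb in MRC5 and 1204 kb in DMS153. The loci were longer than those of tested genes, with a median of 28.6 kb beside 22.9 kb, and the part of locus length in these shares was not tested.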

How the data were processed

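Expression was measured in 8 RNA libraries (3 DMS153, 2 H209, 3 MRC5) and chromatin contacts in 3 Hi-C libraries. The authors deposited FPKM per gene with confidence bounds and a status per the file headers, and Hi-C domain lists whose domain score was not used in any result. The submitters' processing notes name Bowtie2, HOMER 4.8, TopHat2 2.1.0, Cufflinks 2.2.0 and hg19. The sources used here do not say which tool made which file, nor the gene annotation, strand setting or read depth.

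Genes with at least 1 FPKM in at least 2 libraries were tested with limma 3.58.1 in R 4.3.3 on log2(FPKM + 1), in 1 fit over all 8 libraries with a mean per line, 5 residual degrees of freedom and eBayes with trend. FPKM is not a count, so no count model was used. The script was tested on simulated data. A call needed a log2 difference of at least 1 beside a Benjamini-Hochberg adjusted p under 0.05, adjusted across every tested gene. Named were all 40 genes, up to 2 called genes per direction from each other list, all MuvB and G1 genes, and genes noted as chosen later. Some genes under this rule are not reported here. The 40 genes and all lists were chosen with earlier results of these data known. Of 181 listed symbols 180 were found. Alternatives covered pseudocount, filter, scaling, variance model, samples in the fit, a replicate block, single libraries left out, boundary distance and motif. Promoters came from RefSeq GRCh38.p14 and were matched by symbol; hg19 and GRCh38.p14 coordinates were not mixed.

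Separately listed genes that passed the filter overlap 15 of the 40 loci, 12 of them at 10 FPKM or more in a library, and 5 of the 40 genes have 9 listed copies, of which AURKAPS1 in H209 was the highest. Reads of such pairs may have been divided in ways the files do not show.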

Additional observations from a re-analysis of the deposited data

Results flagged for a closer look

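For 9 of the 40 genes the difference from MRC5 was itself called different between the carcinoma lines. These 9 were called by the direct test of DMS153 against H209 in limma with the minimum fold. By the same rule 13.8% of all tested genes were called higher in DMS153 and 13.4% lower. The change was larger in DMS153 for CENPE by 1.76, KIF2C by 1.58, TOP2A by 1.58, CENPF by 1.24, CCNF by 1.23, NUF2 by 1.09 and MKI67 by 1.00 on the log2 scale. It was larger in H209 for NDC80 (-1.84, DMS153 minus H209) and CCNB2 (-1.23). Without the minimum fold 13 of the 40 genes were higher in DMS153 and 16 lower, beside 34.6% and 39% of all tested genes. Of the 9, all but CENPE, NDC80 and CCNB2 were under the minimum fold when libraries were rescaled to the same sum, as given with the results.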

How the results depend on the processing

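All 40 genes were called higher in DMS153 than in MRC5 under every setting tried, and 39 of 40 in H209, CCNF being the exception. Of the 40, 9 (CCNF among them) entered the test at the minimum of 1 FPKM only through the carcinoma lines. A difference was fixed for them by the filter, so their calls, counted here and below, are no support. The other 31 were called higher in both lines under every setting. The median difference in DMS153 was 4.34 with a pseudocount of 0.1, 4.05 with 0.5, 3.30 under quantile normalization, 3.57 under TPM scaling and 4.20 when scaled without small RNA and mitochondrial genes; in H209 it was 4.33, 4.03, 3.17, 4.14 and 4.02, and 3.39 under median ratio scaling. Leaving out each library in turn gave medians of 3.70 to 3.85 in DMS153 and 3.65 to 3.74 in H209, with 40 genes called each time.

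Between DMS153 and H209, leaving out each library gave 6 to 7 genes higher, 2 to 3 lower and a median of 0.04 to 0.15. Dropping the minimum fold gave 13 higher and 16 lower. TPM scaling gave 1 higher, 15 lower and a median of -0.56, a reversed sign, and median ratio scaling a median of 0.23. Over all tested genes the median moved from -0.04 to -0.60 under TPM scaling, 0.0596 under median ratio scaling and 0.00581 without small RNA and mitochondrial genes, and calls went from 2622 higher and 2547 lower to 1782 and 6319 under TPM scaling. In DMS153 against MRC5 the median of all genes was -0.0308 under quantile normalization, with 4242 genes higher and 4432 lower in place of 6489 and 3123. The cause was not tested.

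Deviations from the line mean correlated at -0.0118 to 0.123 for same-numbered libraries and at -0.123 to 0.0541 for other-numbered ones. Deviations cancel within a line, so these values cannot show whether replicate numbers pair libraries. With the replicate block the counts of the 40 genes were 40 and 40 higher against MRC5, the 9 fixed by the filter included. Between the carcinoma lines 7 were higher and 2 lower. Outside the 40, the block ended the call of MAD2L1BP between the carcinoma lines (-0.997). Read depth is not given, so the low MRC5 values are limited by the deposited intervals alone.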
